A study of Homo sapiens with 15 samples.

Results

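The 10 genes described here are ligands and target genes of the TGF-beta and BMP pathways, chosen by name among the 18322 genes of a deposited RNA-seq table of the human melanoma line A375. They are the TGF-beta ligands TGFB1 and TGFB2, the activin subunit INHBA, the ligands BMP4 and BMP5, and the targets ID1, ID2, ID3, SMAD7 and TGFBI. All 10 were in the table and all 10 passed the filter on low values. A375 grew from a melanoma and carries an activating BRAF mutation, and PLX4720 inhibits that mutant kinase. There were 5 groups of 3 libraries. Resistant was a single clonal population that had become resistant to PLX4720. The groups labelled shMYC2 and shMYC1 were those resistant cells with either of a pair of short hairpins against MYC. MYC T58A was the parental line with a MYC variant whose protein is more stable than wild-type MYC. Parental was the line itself. The sources used here do not say whether drug was present at harvest, how the constructs were delivered or whether a control construct was used.

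TGF-beta and activin bind paired serine/threonine kinase receptors that phosphorylate SMAD2 and SMAD3, whereas BMPs signal mainly through SMAD1, SMAD5 and SMAD9. Both branches share SMAD4 and both switch on inhibitors of themselves, among them SMAD7. In melanoma, TGF-beta signalling is known for slowing growth, for changes of cell state and for tolerance of BRAF inhibitors, and melanoma cells commonly secrete its ligands.

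Values are reads scaled by each library's size factor, called normalized reads below, and means are given ± SD of 3 libraries. The libraries held 24222192 to 30399644 reads in genes. MYC went against the labels of both hairpins, with 7817 ± 259.8 normalized reads in the libraries labelled shMYC2 and 486 ± 29.5 in those labelled shMYC1, against 302 ± 28.1 in Resistant. It stood at 3511 ± 94.4 in MYC T58A, where reads from the variant and from endogenous MYC cannot be told apart, against 423 ± 11.9 in Parental. Every direction given for the hairpin groups therefore rests on labels that MYC goes against. The libraries labelled shMYC2 stood apart, with 1636 to 1694 genes without a read, against 296 to 665 in the other 12. Melanocyte markers were 8 of the 10 listed, and their summed level was 257 to 331 in the libraries labelled shMYC2, 13112 to 15474 in those labelled shMYC1, 3571 to 4003 in Resistant, 3580.3 to 3980.3 in MYC T58A and 6816 to 7119 in Parental. SOX10 and MITF made up most of these sums and went different ways. SOX10 had 19.5 ± 3.74 normalized reads in cells labelled shMYC2, 11890 ± 1138 in cells labelled shMYC1 and 7.50 ± 2.52 in Resistant, and 9.14 ± 1.99 in MYC T58A, against 5282 ± 149 in Parental. MITF had 173 ± 23 in cells labelled shMYC2, 1619.7 ± 118 in cells labelled shMYC1 and 3748 ± 233 in Resistant, and 3592 ± 194 in MYC T58A, against 1509 ± 1.76 in Parental. DCT and GPR143 had no read in cells labelled shMYC2, and OCA2 had none in Resistant and MYC T58A. Other markers of the list went the other way in these groups. OCA2 had 74.2 ± 11.1 in cells labelled shMYC2, against 5.86 ± 0.562 in Parental. In MYC T58A, DCT had 78.6 ± 5.13 and TYRP1 60.3 ± 9.40, against 1.04 ± 1.04 and 3.81 ± 1.61 in Parental. Fibroblast markers (10 of 10) summed to 6161 to 6485 in cells labelled shMYC2, 3427 to 3687 in cells labelled shMYC1, 4299.7 to 4503 in Resistant, 622 to 692 in MYC T58A and 2254 to 2477 in Parental, but single genes went opposite ways. COL6A3 had 3861 ± 139 in cells labelled shMYC2 and 319.9 ± 16.4 in Resistant, against 1805 ± 85.1 in Parental, whereas LUM had 3.86 ± 1.32 in cells labelled shMYC2 and 3051 ± 85.1 in Resistant, against 199 ± 11.1 in Parental. Keratinocyte and epithelial markers (6 of 8) summed to 2913 to 3064 in cells labelled shMYC2, 5414 to 5952 in cells labelled shMYC1, 4466 to 4608 in Resistant, 11690 to 12943 in MYC T58A and 7922 to 8139 in Parental, and KRT5 and ELF3 had no read in cells labelled shMYC2. KRT8 and KRT18 made up most of these sums. KRT18 had 9544 ± 640 in MYC T58A, against 6991 ± 106 in Parental. KRT14 had 0.922 ± 0.884 in MYC T58A and 441 ± 39.3 in cells labelled shMYC1, against 98.0 ± 4.57 in Parental. Endothelial (4 of 6) and immune markers (3 of 8) summed to 10.6 to 281 over all libraries. The part of these cell-type markers in the results was not tested. Libraries of 1 group differed by more than counting noise in every pair (chi-square per gene 1.61 to 26.9, where noise alone gives about 1), and the 2 highest values were those of library 2 labelled shMYC1.

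The stretches of 250 bases ahead of the start of TGFB2, INHBA and TGFBI are shown because these are members with their highest values in Resistant. The only other such member, SMAD7, has more than 1 listed start. The sequences are RefSeq's on GRCh38.p14, 5′ to 3′ on the gene's strand, at chr1:218345086-218345335 (+) for TGFB2, chr7:41703091-41703340 (-) for INHBA and chr5:136028738-136028987 (+) for TGFBI, and capitals mark the motif matches named after them.
TGFB2: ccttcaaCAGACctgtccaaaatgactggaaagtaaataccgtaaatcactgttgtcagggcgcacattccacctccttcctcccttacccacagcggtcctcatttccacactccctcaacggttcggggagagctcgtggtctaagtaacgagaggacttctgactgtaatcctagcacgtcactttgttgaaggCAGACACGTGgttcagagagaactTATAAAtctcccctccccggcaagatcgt
INHBA: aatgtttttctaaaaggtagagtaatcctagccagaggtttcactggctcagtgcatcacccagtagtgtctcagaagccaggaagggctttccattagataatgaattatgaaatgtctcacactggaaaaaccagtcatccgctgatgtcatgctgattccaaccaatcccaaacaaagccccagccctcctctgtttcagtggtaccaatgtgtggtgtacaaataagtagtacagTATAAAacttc
TGFBI: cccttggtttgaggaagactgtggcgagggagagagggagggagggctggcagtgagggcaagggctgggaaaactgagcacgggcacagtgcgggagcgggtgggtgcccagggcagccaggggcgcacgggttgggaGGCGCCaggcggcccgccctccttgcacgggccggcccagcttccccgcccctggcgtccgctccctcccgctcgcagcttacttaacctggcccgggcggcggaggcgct
The TGFB2 stretch held the SMAD-binding letters CAGAC at 243 to 239 and at 53 to 49 bases before the start. The second of these shared its last base with the MYC and MAX E-box CACGTG at 49 to 44, and the TATA letters TATAAA lay at 29 to 24. The INHBA stretch held TATAAA at 11 to 6 bases before the start, and the TGFBI stretch held the GC-rich SMAD letters GGCGCC at 111 to 106. The motifs were searched on both strands, also as GTCTAGAC (palindromic SMAD-binding letters) and TGANTCA (AP-1), of which these 3 stretches held none. Among 35116 RefSeq promoters of the same length, 38.0% held CAGAC, 6.34% CACGTG, 10.7% TATAAA, 16.4% GGCGCC, 0.182% GTCTAGAC and 6.57% TGANTCA. A match is only a match of letters in these windows. RefSeq's table listed a single start for 8 of the 10 members, and BMP4 and SMAD7 were not searched. Some of these letters also lay ahead of members that were not highest in Resistant. ID3 held CAGAC at 147 to 143 bases before the start and BMP5 held TATAAA at 118 to 113. ID1 held TATAAA at 31 to 26 and, on the other strand, at 33 to 28. TGFB1 and ID2 held none of the motifs.

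Resistant and Parental cells differed in most of the members. In Resistant, TGFB2, INHBA, BMP5, SMAD7 and TGFBI were higher than in Parental, by 1.91- to 14.6-fold, and BMP4, ID1 and ID2 were lower, by 1.31- to 1.98-fold. Thus 5 of 10 members rose and 3 fell, where 27.2% of all 17012 tested genes rose and 24.4% fell. The members' median log2 difference was 0.60, against 0.01 over all tested genes. A gene was called at an adjusted p under 0.05 in limma, a linear model over all 15 libraries on log2(normalized reads + 1). These p-values rest on a spread between libraries that was pooled over all 5 groups, and Resistant was 1 resistant population. With 3 libraries a group, the smallest two-sided p that an exact permutation test allows is 0.1. In bulk libraries, fewer cells with a transcript and less of it in each cell cannot be told apart.

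In MYC T58A, 3 members rose against Parental (background 30.1%) and 4 fell (33.7%). BMP5, TGFB1 and ID2 were higher, and TGFBI, BMP4, TGFB2 and INHBA were lower. The median was -0.13, against -0.02 over all tested genes. In the libraries labelled shMYC1, 2 members rose against Resistant (27.0%) and 7 fell (30.1%), with a median of -1.20, against -0.03. In those labelled shMYC2, 2 members rose against Resistant (36.2%) and 6 fell (43.0%), with a median of -2.04, against -0.08, and the same median with the gene at 0 reads set to its bound. The comparisons share libraries, Resistant in 3 of them and Parental in 2, so they are not independent of each other. Over the 5 groups, the highest group mean was 1.40-fold the lowest for ID1, 2.10-fold for ID3, 2.31-fold for SMAD7, 2.79-fold for TGFB1 and 4.38-fold for ID2, and 17.1-fold for INHBA, 61.5-fold for TGFBI and 187-fold for TGFB2. The ligands BMP4 and BMP5 had 1 and 0 reads in their lowest group. Within Resistant the libraries varied most for ID1 and TGFB1, with a coefficient of variation of 28.1% and 22.9%.

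**Figure D1:**
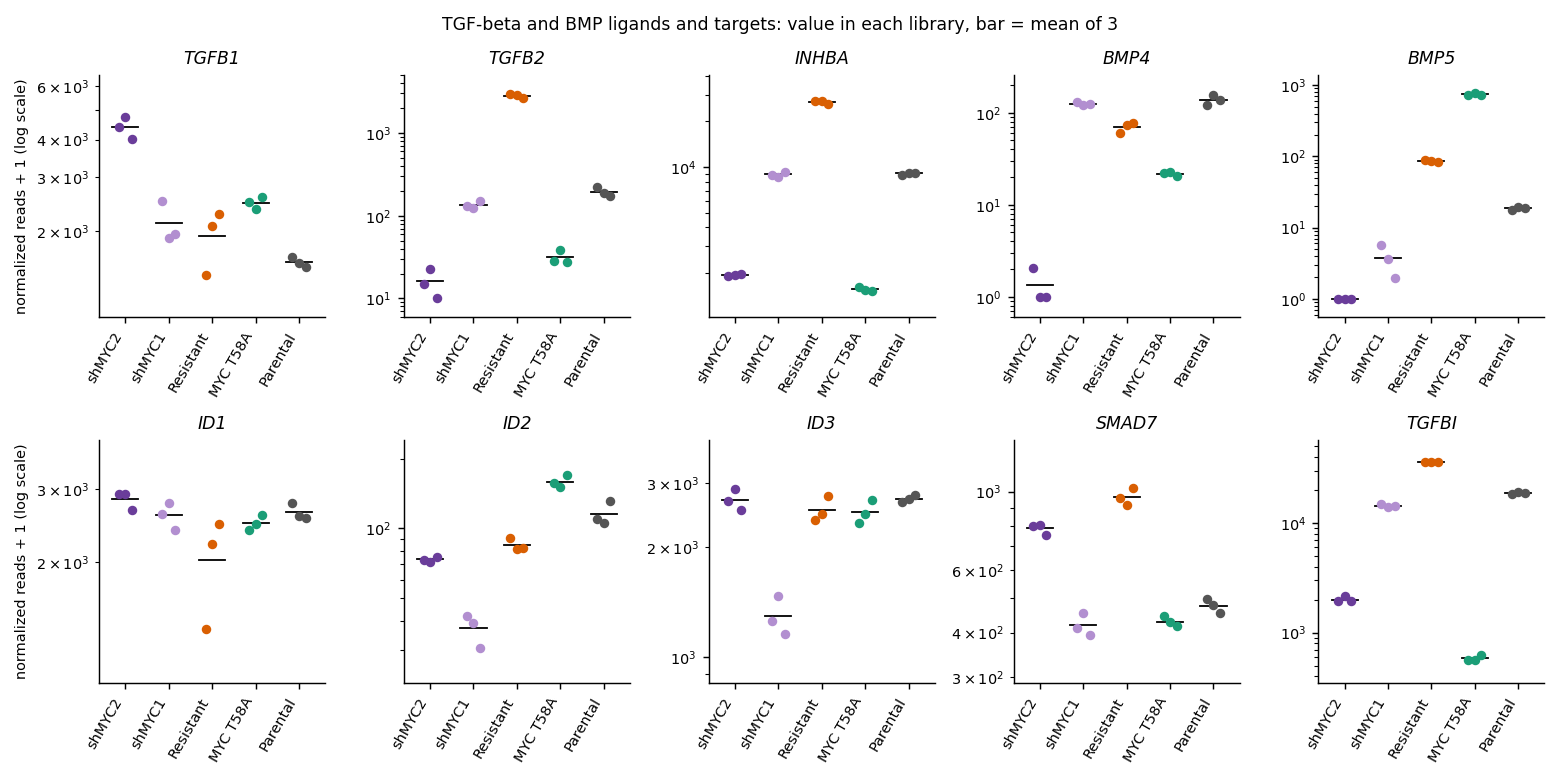
Normalized reads plus 1 (log scale) of each of the 10 members in every library, by group, with a bar at the mean of 3. TGFB2, INHBA and TGFBI are highest in Resistant and lowest in either MYC T58A or the libraries labelled shMYC2, BMP5 is highest in MYC T58A, and the ID1 values of all 5 groups lie between 1382 and 2925.

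Among the ligands of the TGF-beta and activin branch, TGFB2 and INHBA moved together in the 4 comparisons, up in Resistant and down in the other 3. TGFB2 encodes a TGF-beta isoform that is secreted in latent form. TGFB2 stood at 14, 21.9 and 9.21 normalized reads in the 3 libraries labelled shMYC2 and at 130.3, 122 and 150.1 in those labelled shMYC1, against 2946, 2859.7 and 2646 in Resistant. It stood at 27.1, 37.4 and 26.4 in MYC T58A, against 219, 185 and 174 in Parental. No libraries of Resistant overlapped with those of any other group. TGFB2 was higher in Resistant than in Parental by 14.6-fold (log2 difference 3.87, SE 0.22, limma adjusted p = 3.45e-10). It was lower in cells labelled shMYC1 than in Resistant by 21-fold (-4.39, SE 0.22, limma adjusted p = 4.62e-11) and 187-fold lower in those labelled shMYC2 (-7.53, SE 0.22, limma adjusted p = 7.04e-15). MYC T58A was 6.37-fold lower than Parental (-2.64, SE 0.22, limma adjusted p = 2.04e-08). Those labelled shMYC1 lay below every Parental library, but the difference did not pass the test (-0.52, SE 0.22, limma adjusted p = 0.0689).

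INHBA encodes the subunit that pairs with itself to form activin A, which also acts through SMAD2 and SMAD3. INHBA stood at 1926, 1942 and 1982 normalized reads in the 3 libraries labelled shMYC2 and at 8887, 8640.2 and 9327 in those labelled shMYC1, against 27075, 27117 and 26151 in Resistant. It stood at 1615, 1557 and 1533 in MYC T58A, against 8862, 9196 and 9146 in Parental. Resistant was the highest group and its libraries lay far above all others, while those labelled shMYC1 overlapped with Parental. INHBA was higher in Resistant than in Parental by 2.95-fold (log2 difference 1.56, SE 0.041, limma adjusted p = 2.4e-15). It was lower in cells labelled shMYC1 than in Resistant by 2.99-fold (limma adjusted p = 9.83e-16) and 13.7-fold lower in those labelled shMYC2 (limma adjusted p = 7.9e-22). MYC T58A was 5.78-fold lower than Parental (limma adjusted p = 1.3e-18), and cells labelled shMYC1 did not differ from Parental past the test (-0.02, SE 0.041, limma adjusted p = 0.748).

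TGFB1, the isoform best known for its effects on immune cells and fibroblasts, had another pattern. TGFB1 stood at 4401, 4751 and 4018 normalized reads in the 3 libraries labelled shMYC2 and at 2511, 1888 and 1956 in those labelled shMYC1, against 1430.1, 2078 and 2274 in Resistant. It stood at 2482, 2356 and 2595 in MYC T58A, against 1640.5, 1561 and 1520.3 in Parental. The libraries labelled shMYC2 were the highest, MYC T58A lay above Parental without overlap, and Resistant library 1 lay below every Parental library while the other two lay above. TGFB1 was higher in cells labelled shMYC2 than in Resistant by 2.28-fold (log2 difference 1.21, SE 0.15, limma adjusted p = 5.43e-06) and higher in MYC T58A than in Parental by 1.57-fold (0.65, SE 0.15, limma adjusted p = 0.00183). Resistant against Parental did not pass the test (0.27, SE 0.15, limma adjusted p = 0.158), and without Resistant library 1 it did (log2 difference 0.47, limma adjusted p = 0.00131). CCDC97, HNRNPUL1 and TMEM91 overlap TGFB1 on the opposite strand in GENCODE v29, and so does AC011462.1, which is not analysed here. Over the 15 libraries, CCDC97 had a mean of 1168 normalized reads, HNRNPUL1 14537 and TMEM91 19.9. The strand that was counted is not given, so reads of these overlapping genes may be mixed with those of TGFB1. The same holds for INHBA with INHBA-AS1 and ID2 with ID2-AS1, on opposite strands, and for TGFB2 with TGFB2-OT1, on the same strand, none of which is analysed here.

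The BMP ligands did not move as a pair. BMP4 acts in the development of many tissues, the neural crest included. BMP4 stood at 1.08, 0 and 0 normalized reads in the 3 libraries labelled shMYC2 and at 128, 122 and 124 in those labelled shMYC1, against 59.8, 72.4 and 75.6 in Resistant. It stood at 21, 21.8 and 19.4 in MYC T58A, against 119, 155 and 137 in Parental. It had 1 read over the 3 libraries labelled shMYC2, and Resistant lay below Parental and below those labelled shMYC1 without overlap. BMP4 was lower in Resistant than in Parental by 1.98-fold (log2 difference -0.97, SE 0.24, limma adjusted p = 0.00236), lower in MYC T58A than in Parental by 6.60-fold (-2.66, SE 0.24, limma adjusted p = 2.46e-08) and higher in cells labelled shMYC1 than in Resistant by 1.80-fold (0.85, SE 0.24, limma adjusted p = 0.00571). With a pseudocount of 0.1 the first and the last of these calls were lost (limma adjusted p = 0.262 and 0.313). The ratio of Resistant to cells labelled shMYC2 was 193, with an exact 95% Poisson interval of 35.5 to 7923 that covers counting error only.

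BMP5, a BMP known from skeletal development, was highest in MYC T58A. BMP5 stood at 0, 0 and 0 normalized reads in the 3 libraries labelled shMYC2 and at 4.76, 2.65 and 0.956 in those labelled shMYC1, against 88.6, 86.5 and 82.8 in Resistant. It stood at 738, 778 and 718 in MYC T58A, against 16.6, 18.4 and 17.7 in Parental. The groups did not overlap with each other, and their order was MYC T58A, Resistant, Parental, cells labelled shMYC1 and cells labelled shMYC2. BMP5 was higher in MYC T58A than in Parental by 42.3-fold (log2 difference 5.33, SE 0.28, limma adjusted p = 1.98e-11) and higher in Resistant than in Parental by 4.89-fold (2.23, SE 0.28, limma adjusted p = 2.96e-06). In cells labelled shMYC1 it had 9 reads in all, and the ratio of Resistant to cells labelled shMYC1 was 30.9, with an exact 95% Poisson interval of 16.0 to 68.1 (limma adjusted p = 1.43e-10). In cells labelled shMYC2 it had none, which is at least 27.4-fold lower than in Resistant when 3 reads are taken for each of those libraries (limma adjusted p = 2.79e-13).

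**Figure D2:**
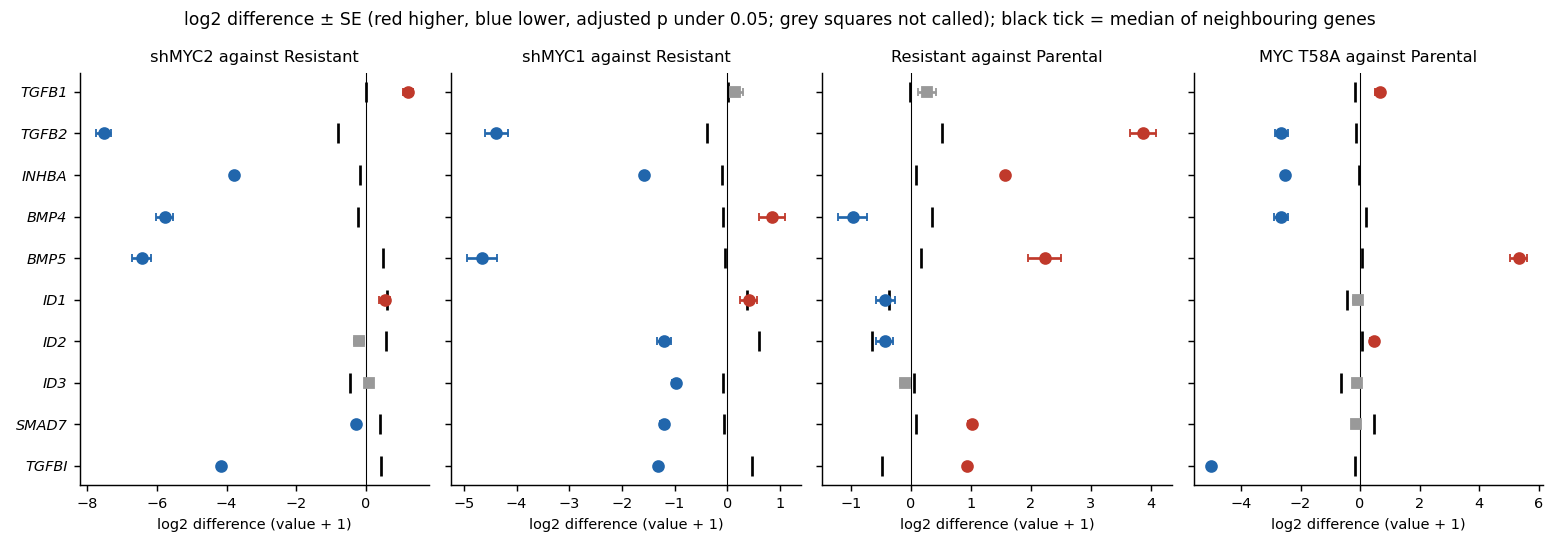
Log2 differences of the 10 members (points) with SE (bars) in 4 panels, cells labelled shMYC2 against Resistant, cells labelled shMYC1 against Resistant, Resistant against Parental and MYC T58A against Parental. Circles passed the test (red higher, blue lower), grey squares did not, and the black tick is the median of the 25 tested genes on either side of the member on its chromosome. The ticks of ID1 lie close to its points in the first 3 panels, and those of TGFB2, INHBA and BMP5 lie much nearer to 0 than their points, which run from -7.53 to 5.33.

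Among the targets, TGFBI and SMAD7 were both highest in Resistant. TGFBI encodes a secreted matrix protein named for its induction by TGF-beta. TGFBI stood at 1932, 2143 and 1942 normalized reads in the 3 libraries labelled shMYC2 and at 14970, 14088 and 14235 in those labelled shMYC1, against 35732, 35652 and 35800 in Resistant. It stood at 561, 559.9 and 622 in MYC T58A, against 18316, 19078 and 18742 in Parental. No libraries of different groups overlapped, and the order was Resistant, Parental, cells labelled shMYC1, cells labelled shMYC2 and MYC T58A. TGFBI was higher in Resistant than in Parental by 1.91-fold (log2 difference 0.93, SE 0.05, limma adjusted p = 4.26e-11), and lower in MYC T58A than in Parental by 32.2-fold (-5.01, SE 0.05, limma adjusted p = 1.61e-21). Against Resistant it was 2.48-fold lower in cells labelled shMYC1 (-1.31, SE 0.05, limma adjusted p = 2.45e-13) and 17.8-fold lower in cells labelled shMYC2 (-4.16, SE 0.05, limma adjusted p = 4.1e-21). The neighbouring genes had median log2 differences of -0.49 in Resistant against Parental and 0.46 and 0.42 in cells labelled shMYC1 and cells labelled shMYC2 against Resistant, opposite to TGFBI.

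SMAD7 is an inhibitory SMAD that both branches switch on and that blocks their receptors. SMAD7 stood at 801, 806 and 753 normalized reads in the 3 libraries labelled shMYC2 and at 410.0, 453 and 393 in those labelled shMYC1, against 957, 916 and 1026 in Resistant. It stood at 444, 427 and 415 in MYC T58A, against 496, 476 and 453 in Parental. Resistant lay above all other groups without overlap, cells labelled shMYC2 came next, and the rest lay close together. SMAD7 was higher in Resistant than in Parental by 2.03-fold (log2 difference 1.02, SE 0.067, limma adjusted p = 5.7e-10). It was lower in cells labelled shMYC1 than in Resistant by 2.31-fold (-1.21, SE 0.067, limma adjusted p = 4.01e-11) and 1.23-fold lower in cells labelled shMYC2 (-0.30, SE 0.067, limma adjusted p = 0.000556). In MYC T58A it did not pass the test against Parental (-0.15, SE 0.067, limma adjusted p = 0.0613). The neighbouring genes had median log2 differences of 0.08 in Resistant and 0.47 in MYC T58A, both against Parental. Against Resistant these were -0.07 in cells labelled shMYC1 and 0.40 in cells labelled shMYC2.

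ID1, ID2 and ID3 are BMP targets that bind E proteins and keep them from DNA, and they did not move as a group. ID1 stood at 2925, 2918 and 2667 normalized reads in the 3 libraries labelled shMYC2 and at 2619, 2778 and 2394 in those labelled shMYC1, against 1382, 2214 and 2469 in Resistant. It stood at 2394, 2475 and 2606 in MYC T58A, against 2783, 2586 and 2562 in Parental. Resistant library 1 was by far the lowest of the 15 libraries, Resistant lay below Parental without overlap, and the order of the 5 groups had no neighbours that differed past the test. ID1 was lower in Resistant than in Parental by 1.31-fold (log2 difference -0.43, SE 0.16, limma adjusted p = 0.0396), higher in cells labelled shMYC1 than in Resistant by 1.28-fold (0.40, SE 0.16, limma adjusted p = 0.0478) and higher in cells labelled shMYC2 than in Resistant by 1.40-fold (0.53, SE 0.16, limma adjusted p = 0.00845). Without Resistant library 1 these log2 differences were -0.18, 0.15 and 0.28, with limma adjusted p of 0.0473, 0.0859 and 0.00175. Leaving out any of the Parental libraries also ended the first call (limma adjusted p of 0.0658 to 0.104), as did leaving any library labelled shMYC1 out of the second (0.0505 to 0.152). The 50 neighbouring genes had median log2 differences of -0.37, 0.37 and 0.60 in the same 3 comparisons, close to those of ID1.

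ID2 stood at 72.1, 70.9 and 74.7 normalized reads in the 3 libraries labelled shMYC2 and at 40.9, 37.9 and 29.6 in those labelled shMYC1, against 89.6, 80.8 and 81 in Resistant. It stood at 156, 149.6 and 169 in MYC T58A, against 109, 104 and 130.4 in Parental. MYC T58A was the highest group and cells labelled shMYC1 the lowest, and neither overlapped with another group. ID2 was higher in MYC T58A than in Parental by 1.38-fold (log2 difference 0.47, SE 0.14, limma adjusted p = 0.00597), lower in Resistant than in Parental by 1.37-fold (-0.44, SE 0.14, limma adjusted p = 0.0111) and lower in cells labelled shMYC1 than in Resistant by 2.32-fold (-1.20, SE 0.14, limma adjusted p = 5.6e-07). The call in Resistant was lost without Parental library 3 (-0.35, limma adjusted p = 0.068), and the neighbouring genes had a median of -0.66 there. In cells labelled shMYC2 against Resistant the difference did not pass the test (-0.20, SE 0.14, limma adjusted p = 0.177), but it passed in opposite directions under quantile normalization (0.67, limma adjusted p = 0.000261) and total-count scaling (-0.35, limma adjusted p = 0.0257).

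ID3 stood at 2676, 2896 and 2534 normalized reads in the 3 libraries labelled shMYC2 and at 1254, 1469 and 1159 in those labelled shMYC1, against 2374, 2465 and 2767 in Resistant. It stood at 2338, 2476 and 2702 in MYC T58A, against 2670.5, 2711 and 2776 in Parental. The libraries labelled shMYC1 were the lowest without overlap, and the other 4 groups did not differ past the test from their neighbours in order. ID3 was lower in cells labelled shMYC1 than in Resistant by 1.96-fold (log2 difference -0.97, SE 0.08, limma adjusted p = 1.27e-08). It did not pass the test in cells labelled shMYC2 against Resistant (0.09, SE 0.08, limma adjusted p = 0.295), Resistant against Parental (-0.10, SE 0.08, limma adjusted p = 0.299) or MYC T58A against Parental (-0.12, SE 0.08, limma adjusted p = 0.202). The neighbouring genes had median log2 differences of -0.47, 0.06 and -0.65 in the same 3 comparisons.

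Since MYC was not lower in the hairpin libraries, those labelled shMYC1 were also set against Parental, where 1 member rose (19.7% of all tested genes did) and 5 fell (19.9%), with a median log2 difference of -0.28. TGFB1 was higher in cells labelled shMYC1 than in Parental by 1.35-fold (log2 difference 0.42, SE 0.15, limma adjusted p = 0.0413). BMP5 (-2.43), ID2 (-1.64), ID3 (-1.08), TGFBI (-0.38) and SMAD7 (-0.18) fell, with limma adjusted p of 1.38e-08 to 0.0364. For SMAD7 the libraries labelled shMYC1 overlapped with those of Parental, and the difference was only 1.13-fold. BMP4 and ID1 did not pass (-0.13 and -0.03). In cells labelled shMYC2 against cells labelled shMYC1, 4 members rose (35.7%) and 5 fell (42.9%). Those 4 were TGFB1, ID2, ID3 and SMAD7, and ID1 did not pass. In cells labelled shMYC2 against Parental, 2 members rose and 6 fell, where 13517 of all 17012 tested genes were called either way. TGFB1 (1.48) and SMAD7 (0.73) rose there, with limma adjusted p of 7.51e-07 and 1.2e-08.

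The other genes of the pathway were taken from 10 lists by role with 133 genes, of which 110 were in the table and 103 were tested. The lists hold the 10 members too. Over all lists, 33 genes rose and 37 fell in Resistant against Parental (27.2% and 24.4% of all tested genes did), 29 and 54 in MYC T58A against Parental (30.1% and 33.7%), 35 and 43 in cells labelled shMYC1 against Resistant (27.0% and 30.1%), and 46 and 47 in cells labelled shMYC2 against Resistant (36.2% and 43.0%). The median log2 differences were -0.0018, -0.31, -0.10 and -0.10, beside 0.01, -0.02, -0.03 and -0.08 over all tested genes. Another scaling, by total counts, moved the median of all genes in cells labelled shMYC2 against Resistant by -0.14. Among 9 tested ligands of the TGF-beta and activin branch, 5 rose and 1 fell in Resistant against Parental, 3 rose and 4 fell in MYC T58A against Parental, 2 rose and 5 fell in cells labelled shMYC1 against Resistant and 2 rose and 5 fell in cells labelled shMYC2 against Resistant, with medians of 1.06, -0.22, -1.55 and -0.79. GDF15, a stress-induced cytokine, was higher in Resistant than in Parental by 5.24-fold, at 468 ± 92.5 and 89.3 ± 11.6 normalized reads, and 27.6-fold higher in MYC T58A, at 2462 ± 139. GDF15 is counted among the 5 and the 3 that rose, but whether it acts through SMAD2 and SMAD3 was not tested. INHBE, another activin subunit, had 152 ± 4.70 normalized reads in Resistant, against 2.07 ± 1.80 in Parental (ratio 73.4, exact 95% Poisson interval 33.5 to 201, counting error only). Of the 8 tested BMP and GDF ligands, 1 rose and 6 fell in Resistant against Parental, 3 rose and 4 fell in MYC T58A against Parental and 6 rose and 1 fell in cells labelled shMYC1 against Resistant, with medians of -0.94, -1.12 and 1.02. BMP2 stood at 1866 ± 15 in cells labelled shMYC2, 785 ± 41.9 in cells labelled shMYC1 and 341 ± 10.8 in Resistant, and at 65.9 ± 0.645 in MYC T58A, against 500.4 ± 3.13 in Parental. It rose in both hairpin groups and fell in Resistant and MYC T58A. In Resistant against Parental its log2 difference was -0.55, and the median of its neighbouring genes was -0.48. In MYC T58A against Parental these were -2.9 and -0.55, and in cells labelled shMYC1 against Resistant 1.20 and 0.52. In cells labelled shMYC2 against Resistant, 2 of the BMP and GDF ligands rose and 6 fell, with a median of -3.10, or -2.22 with genes at 0 reads set to their bounds.

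**Figure D3:**
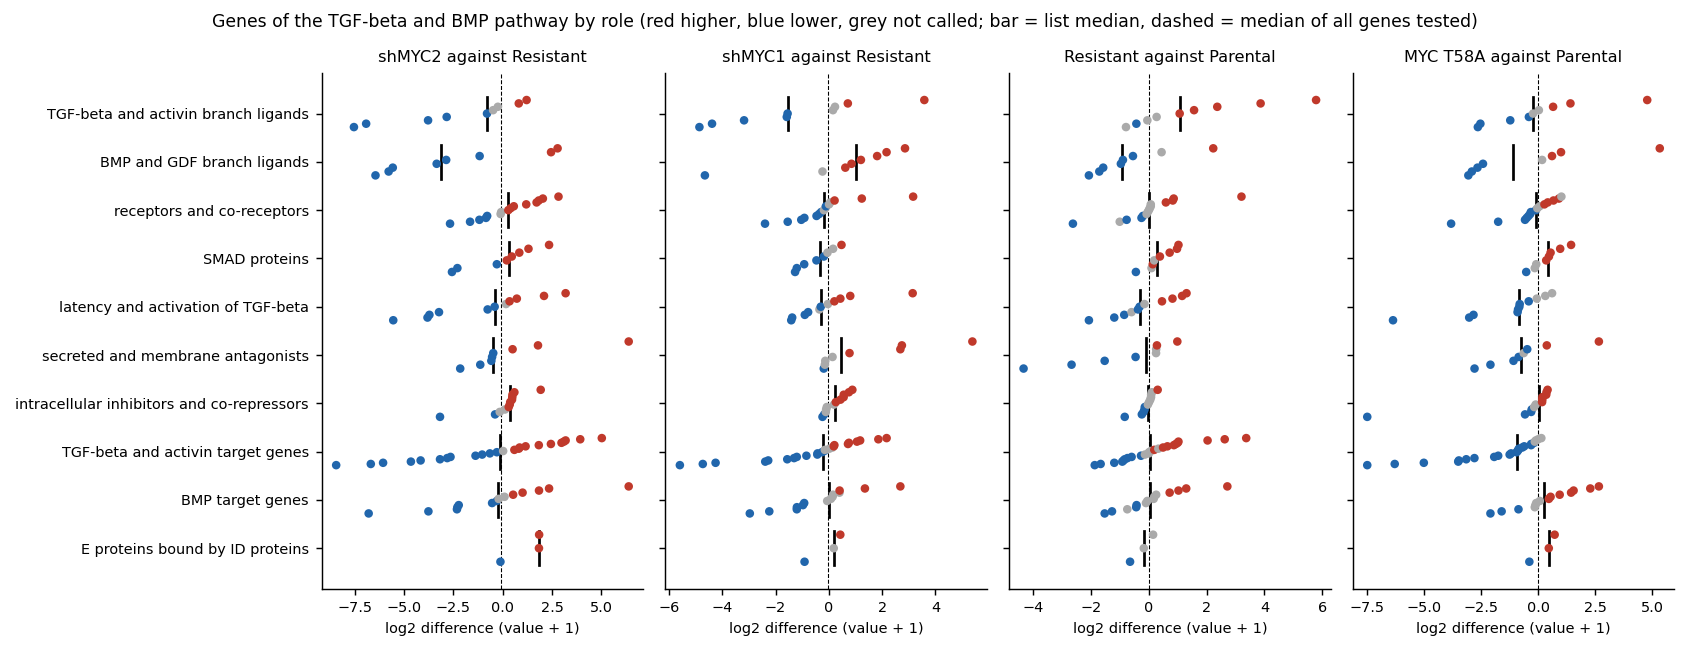
Log2 difference of each tested gene of the 10 role lists in the 4 comparisons, red where higher and blue where lower past the test and grey where not, with a bar at each list's median and a dashed line at the median of all tested genes. In MYC T58A against Parental, 20 of 24 tested TGF-beta and activin target genes fell and 0 rose (33.7% and 30.1% of all tested genes did).

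Of 15 tested receptors and co-receptors, 4 rose and 4 fell in Resistant against Parental (27.2% and 24.4% of all tested genes did). In MYC T58A against Parental, 4 rose and 8 fell (30.1% and 33.7%). In cells labelled shMYC1 against Resistant, 3 rose and 8 fell (27.0% and 30.1%). In cells labelled shMYC2 against Resistant, 8 rose and 5 fell (36.2% and 43.0%). TGFBR1, the signalling kinase for TGF-beta, was higher in Resistant than in Parental by 1.81-fold (log2 difference 0.86, SE 0.052, limma adjusted p = 2.08e-10) and lower in cells labelled shMYC1 than in Resistant by 1.89-fold. TGFBR2, which binds the ligand, had 22623 ± 313 normalized reads in cells labelled shMYC2, against 3187 ± 99.4 in Resistant (7.10-fold higher, limma adjusted p = 3.11e-20). Of the 8 SMADs, 5 rose and 1 fell in Resistant against Parental, 5 rose and 1 fell in MYC T58A against Parental, 1 rose and 5 fell in cells labelled shMYC1 against Resistant and 5 rose and 3 fell in cells labelled shMYC2 against Resistant. For some of these, neighbouring genes moved alike. In MYC T58A, SMAD2 (0.47) and SMAD4 (0.35) had neighbour medians of 0.50 and 0.47. In Resistant, the median was -0.49 for SMAD5 (-0.45), but -0.02 for SMAD3 (0.97) and -0.01 for SMAD6 (0.72). SMAD3 had 1359 ± 29.2 in cells labelled shMYC2, 3343 ± 129.5 in cells labelled shMYC1 and 8062 ± 198 in Resistant, and 2860 ± 148 in MYC T58A, against 4108 ± 25.2 in Parental. It was higher in Resistant than in Parental by 1.96-fold (limma adjusted p = 7.16e-12) and fell in the other 3 comparisons. SMAD6, the inhibitor that acts mainly on BMP signalling, was higher in MYC T58A than in Parental by 2.72-fold (limma adjusted p = 1.56e-07) and lower in cells labelled shMYC2 than in Resistant by 5-fold.

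Of 11 tested genes for the latency and activation of TGF-beta, 4 rose and 5 fell in Resistant against Parental (27.2% and 24.4% of all tested genes did). In MYC T58A against Parental, 0 rose and 8 fell (30.1% and 33.7%). In cells labelled shMYC1 against Resistant, 4 rose and 5 fell (27.0% and 30.1%). In cells labelled shMYC2 against Resistant, 4 rose and 6 fell (36.2% and 43.0%). In MYC T58A the median was -0.82, and by an unadjusted limma p under 0.05, edgeR and DESeq2 the number that rose was also 0. THBS1, a matrix protein that can activate latent TGF-beta, was higher in Resistant than in Parental by 2.46-fold, lower in MYC T58A than in Parental by 8.12-fold and lower in cells labelled shMYC2 than in Resistant by 46.5-fold. ITGB8, an integrin subunit that releases active TGF-beta, was lower in Resistant than in Parental by 4.23-fold (log2 difference -2.08, SE 0.17, limma adjusted p = 7.2e-08) and higher in cells labelled shMYC1 than in Resistant by 8.86-fold (3.14, SE 0.17, limma adjusted p = 4.79e-10). In MYC T58A it was 84.1-fold lower than in Parental. Among 8 tested secreted or membrane antagonists, 2 rose and 4 fell in Resistant against Parental, 2 rose and 5 fell in MYC T58A against Parental, 4 rose and 1 fell in cells labelled shMYC1 against Resistant and 3 rose and 5 fell in cells labelled shMYC2 against Resistant. Among 12 intracellular inhibitors and co-repressors, 1 rose and 5 fell in Resistant against Parental, 6 rose and 4 fell in MYC T58A against Parental, 6 rose and 2 fell in cells labelled shMYC1 against Resistant and 8 rose and 2 fell in cells labelled shMYC2 against Resistant. FST, which binds activin and so opposes INHBA's product, had 385 ± 26.2 normalized reads in Resistant, against 2469 ± 39.6 in Parental (6.41-fold lower, limma adjusted p = 7.07e-16). It was higher in cells labelled shMYC1 than in Resistant by 6.69-fold. FSTL3, another activin-binding protein, was higher in Resistant than in Parental by 1.98-fold. NOG, a BMP antagonist, had 1036 ± 46.8 in cells labelled shMYC2, against 11.5 ± 2.31 in Resistant (limma adjusted p = 5.73e-16), and 227 ± 25.6 in MYC T58A, against 35.9 ± 10.7 in Parental (limma adjusted p = 6.92e-10).

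**Figure D4:**
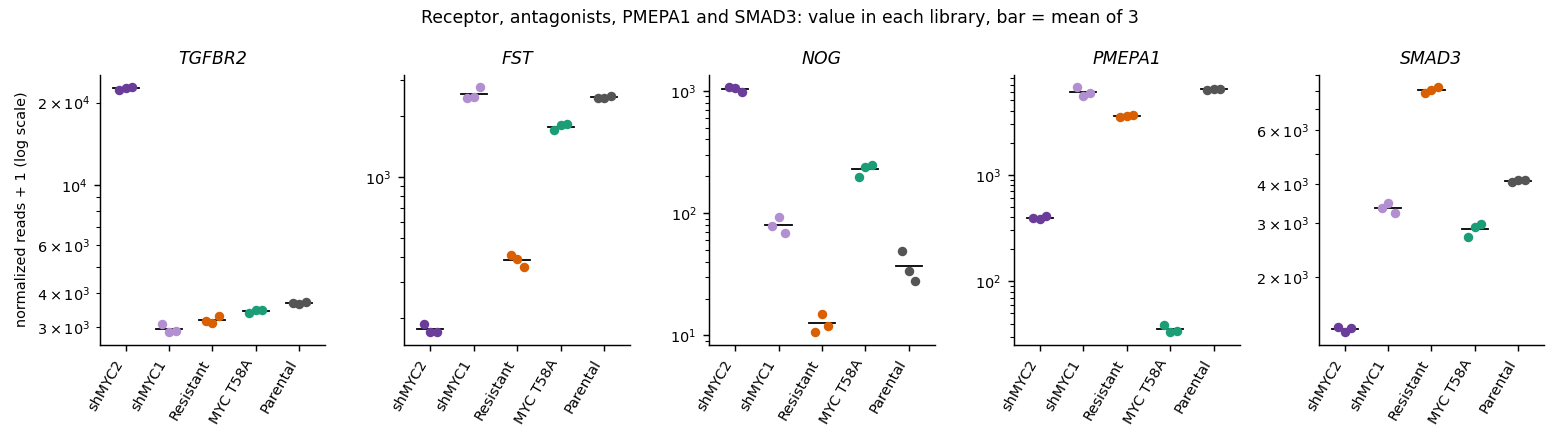
Normalized reads plus 1 (log scale) of TGFBR2, FST, NOG, PMEPA1 and SMAD3 in every library, by group, with a bar at the mean of 3. These genes were picked for the plot after their values were seen. SMAD3 is highest in Resistant, PMEPA1 is lowest in MYC T58A, and TGFBR2 and NOG are highest in the libraries labelled shMYC2.

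Target genes of the TGF-beta branch were split in Resistant against Parental, where 10 of 24 rose and 9 fell (27.2% and 24.4% of all tested genes did). TAGLN, an actin-binding protein, was 10.3-fold higher (log2 difference 3.37, SE 0.098, limma adjusted p = 1.12e-14), and COL1A1, a collagen chain, 4.11-fold higher. ADAM19, NEDD9 and LTBP2 fell, by 3.68-, 3.20- and 2.31-fold. In cells labelled shMYC1 against Resistant, 8 of the 24 rose and 13 fell (27.0% and 30.1% of all tested genes did). TAGLN had 74.6 ± 1.18 normalized reads in cells labelled shMYC1, against 2010.5 ± 45.2 in Resistant (27-fold lower, limma adjusted p = 5.98e-17). CTGF, a matricellular protein, was higher in cells labelled shMYC1 than in Resistant by 4.50-fold (limma adjusted p = 4.13e-16). In MYC T58A against Parental, 0 of the 24 target genes rose and 20 fell (30.1% and 33.7% of all tested genes did). Their median log2 difference was -0.92. The number that rose was 0 also by an unadjusted limma p under 0.05, edgeR and DESeq2. PMEPA1, which dampens TGF-beta signalling, had 34.6 ± 3.08, against 6364 ± 70.4 in Parental (184-fold lower, limma adjusted p = 7.12e-22). FN1, the gene of fibronectin, was 78.2-fold lower. In cells labelled shMYC2 against Resistant, 11 rose and 12 fell (36.2% and 43.0% of all tested genes did). Among them were SNAI2, a neural crest transcription factor, at 4560.1 ± 17.1 and 139.8 ± 13, and COL4A1, a basement membrane collagen, at 26.8 ± 4.57 and 9518 ± 315.

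Of 14 tested BMP targets, 4 rose and 4 fell in Resistant against Parental (27.2% and 24.4% of all tested genes did). In MYC T58A against Parental, 7 rose and 3 fell (30.1% and 33.7%). In cells labelled shMYC1 against Resistant, 3 rose and 6 fell (27.0% and 30.1%). In cells labelled shMYC2 against Resistant, 5 rose and 7 fell (36.2% and 43.0%). RUNX2, a transcription factor of bone formation, was higher in Resistant than in Parental by 6.58-fold (log2 difference 2.71, SE 0.082, limma adjusted p = 2.09e-14) and lower in cells labelled shMYC1 than in Resistant by 7.86-fold. GATA2 was higher in MYC T58A than in Parental by 4.88-fold (limma adjusted p = 2.29e-14). Of the E proteins that ID proteins bind, TCF3 and TCF4 rose in cells labelled shMYC2 against Resistant, by 3.57- and 3.59-fold, while TCF12 fell by 0.11 on the log2 scale. In Resistant against Parental, TCF12 was 1.57-fold lower and TCF3 and TCF4 did not pass the test (-0.18 and 0.14).

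For each member, the gene outside the set with the most similar pattern was the one with the smallest root mean square difference in centred log2 values over the 15 libraries, among 12484 genes with a mean of at least 50. For 8 members that distance was below 0.35 on the log2 scale, namely IFFO1 to TGFB1 (0.120), STAT5B to SMAD7 (0.127), GNB2 to ID1 (0.128), PAXIP1-AS2 to ID3 (0.190), GNAO1 to INHBA (0.277), TESK2 to BMP4 (0.297), C6orf141 to ID2 (0.307) and AIM2 to TGFBI (0.344). TGFB2 and BMP5 had no gene nearer than 0.549 (CRISPLD2) and 1.03 (ARHGEF16). PAXIP1-AS2 is an antisense gene whose reads cannot be told from those of its partner, since the strand counted is not given. Among the members themselves, TGFB1 and ID1 (0.459) and ID2 and ID3 (0.465) were the closest pairs, and INHBA lay at 0.86 from TGFBI. This distance is not scaled to how far a gene varies, so genes that differ little between groups lie close by that alone.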

How the data were processed

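mRNA of A375 cells was sequenced in 15 libraries, made with a stranded Kapa kit after RNeasy extraction, per the labels. The authors used Trim Galore, cutadapt, STAR, HTSeq and DESeq2, per the submitters' processing notes, and the sources used here give no version, build, annotation or strand setting. The deposited signal values are reads per gene symbol scaled by each library's size factor, a unit read from the values, since 100% were whole multiples of a single step per library (tolerance 0.01). Column names give the group and a running number but no replicate label, and libraries are numbered in column order.

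Genes with at least 10 normalized reads in at least 3 libraries were tested (17012, with 1310 left out) with limma 3.58.1 (trend and robust, R 4.3.3) on log2(value + 1), as 1 mean per group over all 15 libraries. P-values were adjusted by Benjamini-Hochberg over all tested genes in each of 10 pairwise contrasts, and genes were called under 0.05. This scale understates how far low genes change, and fitted values against groups at 0 reads depend on the pseudocount. The script was tested on simulated data. Alternatives were other pseudocounts, filters and scalings, edgeR 4.0.16, DESeq2 1.42.0, smaller sets of libraries and the median of neighbouring genes (GENCODE v29 order, 25 on each side). Members, lists, motifs and tests were chosen with earlier results of these data known. Named genes are all members, MYC, the called list genes with the largest log2 differences (up to 3 per list, direction and comparison, with a mean of at least 50 in either group) and, for each member, the genes with the most similar pattern. TCF3 and TCF4 in Resistant against Parental were named after their values were seen. A target gene that this rule names is not reported here.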

Additional observations from a re-analysis of the deposited data

Results flagged for a closer look

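The libraries labelled shMYC2 and shMYC1 were both set against Resistant, and the 2 effects differed past the test for 9 of the 10 members, where 35.7% of all tested genes were higher and 42.9% lower in cells labelled shMYC2 than in cells labelled shMYC1, so the count is near the background. Because Resistant is shared, this difference is cells labelled shMYC2 minus cells labelled shMYC1 itself, on the log2 scale, with limma adjusted p of 1.22e-18 to 2.07e-05. BMP4 fell in cells labelled shMYC2 and rose in cells labelled shMYC1 (log2 difference 0.85). Its fitted difference of -6.62 rests on 1 read over the libraries labelled shMYC2, under the floor of 3 reads per library, and its size depends on the pseudocount. With 1 read in cells labelled shMYC2 and 403 in cells labelled shMYC1, the ratio of cells labelled shMYC1 to cells labelled shMYC2 was 348, with an exact 95% Poisson interval of 63.8 to 14150 that covers counting error only. TGFB2 (-3.15), INHBA (-2.2) and TGFBI (-2.85) fell in both, and further in cells labelled shMYC2. BMP5 also fell in both, and its difference of -1.79 rests on 0 reads in cells labelled shMYC2 and 9 in cells labelled shMYC1, both at or under that floor, so no fold is given. TGFB1 (1.06) rose in cells labelled shMYC2 and did not pass the test in cells labelled shMYC1. ID3 (1.07) and ID2 (0.998) fell in cells labelled shMYC1 and did not pass in cells labelled shMYC2, and SMAD7 (0.91) fell in both, by less in cells labelled shMYC2. Quantile normalization turned the ID2 value of cells labelled shMYC2 against Resistant to 0.67. MYC stood at 7817 ± 259.8 normalized reads in cells labelled shMYC2 and 486 ± 29.5 in cells labelled shMYC1, against 302 ± 28.1 in Resistant.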

How the results depend on the processing

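No paired analysis was possible because the table's columns carry no replicate numbers of the labels. Under no alternative did the number of members, of pathway list genes or of all genes called move by over 1.5 times in any of the 4 main comparisons. edgeR, DESeq2, a pseudocount of 10 and a filter of 50 kept the side of the threshold of all 40 member values, and leaving out a library kept 230 of 240. No filter kept 39, and a pseudocount of 0.1, quantile normalization and total-count scaling kept 38 each. Less the median of neighbouring genes, 14 of the 40 member values stayed within their SE with their sign kept, 24 moved further, and 2 that had passed the test changed sign. ID2 in Resistant against Parental became 0.217 and ID1 in cells labelled shMYC2 against Resistant -0.0706. Quantile normalization gave ID2 in cells labelled shMYC2 against Resistant 0.673. The cause was not tested. The calls of ID1 were the least stable. With the 2 groups alone its adjusted p in limma was 0.225 in Resistant against Parental, 0.153 in cells labelled shMYC1 against Resistant and 0.0802 in cells labelled shMYC2 against Resistant, and without the libraries labelled shMYC2 it was 0.0652 and 0.0757 in the first and second of these. With the 2 groups alone, ID3 and SMAD7 passed as lower in MYC T58A than in Parental (limma adjusted p = 0.0334 and 0.045), SMAD7 also without Parental library 3 (0.0466). Depth limits BMP5 in both hairpin groups (9 reads in cells labelled shMYC1 and 0 in cells labelled shMYC2) and BMP4 in cells labelled shMYC2 (1 read).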

Other observations

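Among genes of the pathway lists not described in the report, the receptor gene BMPR2 had 4999 ± 244 normalized reads in the libraries labelled shMYC2, against 1405 ± 54.7 in Resistant (3.56-fold higher, log2 difference 1.83, SE 0.054, limma adjusted p = 8.23e-16), and TGFBR3, a co-receptor also called betaglycan, had 888 ± 31, against 216 ± 9.72 (4.12-fold higher, limma adjusted p = 2.08e-14). SMAD9 was 5.14-fold higher there (limma adjusted p = 9.48e-13) and SMURF2, a ubiquitin ligase that acts on SMADs and their receptors, 3.80-fold higher (limma adjusted p = 1.89e-17). LIF, a cytokine, had 41.6 ± 5.96 in cells labelled shMYC2, against 2817 ± 85.3 in Resistant (67.7-fold lower, limma adjusted p = 4.58e-21).

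CHRDL1, a BMP antagonist, had 235 ± 18.9 normalized reads in cells labelled shMYC1, against 5.33 ± 3.37 in Resistant (44.1-fold higher, limma adjusted p = 5.76e-10), and 114 ± 15.1 in Parental, from which Resistant was 21.4-fold lower (limma adjusted p = 1.49e-08). NEDD9 and MSX2 had 2 reads each over the 3 libraries labelled shMYC2, and the ratios of Resistant to cells labelled shMYC2 were 237 (exact 95% Poisson interval 64.4 to 1937) and 234 (63.1 to 1898), which cover counting error only.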
